A study of Mus musculus with 4 samples.

Results

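Cells in which Dnmt3a and Dnmt3b had been targeted together were compared with unedited cells of the same line, gene by gene over the whole transcriptome. The comparison used 3 of the 4 bulk RNA-seq libraries of the series: 1 of unedited C3H10T1/2 cells (WT) and 2 of DNMT3A/B double knockout cells (DKO), which are single clones labelled 1 and 5. C3H10T1/2 is an established line of mouse mesenchymal stem cells, which can form cartilage, bone, fat and muscle in culture. The remaining library, PRDX1MT, holds clone 10 of cells with a CRISPR edit in the splice acceptor of Prdx1 intron 5 (genotype label PRDX1-KO) and has its values given beside the others for many genes. All 4 came from the same line, grown in the same serum-containing medium. The series asks how Mmachc, a gene of cobalamin metabolism next to Prdx1, comes to be silenced. The labels do not say how either Dnmt gene was cut, or whether the DKO clones carry the Prdx1 edit too. WT had 1 library, so every p-value below rests on the spread between the 2 clones and on a prior spread drawn from all genes tested. The labels do not say that the libraries came from separate cultures. A difference between 2 clones and 1 parental library can also be a difference between single cells from which the clones grew. Such differences cannot be told apart from the knockout here.

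Dnmt3a and Dnmt3b are the de novo DNA methyltransferases: they add methyl groups to cytosines of CpG dinucleotides that carried none. Dnmt1 with its partner Uhrf1 then copies the marks at each round of replication, so cells without the de novo enzymes can keep much of an inherited pattern. Methylated CpG-rich promoters are mostly silent, and methylation inherited from 1 parent sets which copy of an imprinted gene is used. Methylation by Dnmt3a and Dnmt3b is also found in the bodies of active genes and beside regions held by Polycomb.

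The gene-level counts did not show the loss of either target. Dnmt3a (chromosome 12, 3806007 to 3914443, GRCm38) had 1799 reads in WT, 1118 in clone 1 and 714 in clone 5, and its log2 ratio in DKO was -0.61 (SE 0.44, edgeR adjusted p = 0.9996). Dnmt3b (chromosome 2, 153649450 to 153687730) had 135, 101 and 56 reads in the same order, with a log2 ratio of -0.43 (SE 0.68, edgeR adjusted p = 0.9996). Both clones lay below WT for both genes, but not beyond the spread of the fit. A small edit can leave a transcript in place, and the position of the edits is not given in the sources used here, so these counts do not check the labels. Prdx1, the peroxiredoxin gene edited in PRDX1MT, had 16428 reads in WT, 13987 in clone 1, 9136 in clone 5 and 775 in PRDX1MT. Mmachc had 455, 215, 372 and 419 reads and Ccdc163, the next gene along, 243, 99, 218 and 1115 in that order of libraries. None of the 3 was called in DKO, and for Mmachc and Ccdc163 the clones lay on both sides of WT once scaled.

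The libraries looked like mesenchymal cells. All 16 stromal markers had enough reads to test. Their summed level was 24027 CPM in WT, 23517 CPM in clone 1 and 41596 CPM in clone 5. With 1 WT library, a marker left uncalled is not shown to be at the same level. Of the 16, 15 were not called, Col1a1, Col1a2 and Vim among them. The exception was Thy1, the surface protein CD90, which fell. Of 11 genes that such cells should lack, Epcam and Adgre1 had 0 reads in every library and Ptprc had 0 in WT and both clones. The highest in WT were Cd34 with 84 reads (12 and 10 in the clones) and Cdh1 with 68 (16 and 33). The summed level of the immune marker list was 10.2 CPM in WT, 22.5 CPM in clone 1 and 9.88 CPM in clone 5, and that of the epithelial list 22.9, 2.16 and 5.05 CPM. Most of the WT epithelial sum was Cd24a. The endothelial list summed to 61.7, 17.4 and 26.2 CPM and the neural list to 358, 400 and 452 CPM. The part of these levels in the results below was not tested.

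More genes were called lower than higher in the DKO clones. Levels are in CPM (counts scaled to library size by the trimmed mean of M values, TMM). Of 19446 genes with enough reads to test, 88 were lower (0.453%) and 3 were higher (0.0154%) at an adjusted p under 0.05 in edgeR's quasi-likelihood test, 91 in all (0.468%). At an unadjusted p under 0.05 there were 988. A gene with reads in WT alone could enter this test, and a filter of 1 CPM in 2 libraries left 0 calls. The 88 genes that fell had 105 to 9875 reads in WT (median 443.5). Their median log2 ratio was -6.64 in clone 1 and -6.34 in clone 5, against medians of -0.04 and -0.02 over all genes tested. A gap between these medians follows from picking the 88 genes by this difference. In 32 of the 88 both clones had 0 reads, in 31 the clones held 1 to 10 reads together, and in 25 more than 10. In PRDX1MT, 48 of the 88 were also more than 2-fold below WT in CPM, and 21 were at or above WT. Protein-coding genes made up 83 of the 88. Exons of 17 overlap a gene on the other strand, and their reads cannot be assigned with certainty because the strand setting of the counting is not given in the sources used here.

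A gene needed a very large or very even change to pass with 1 WT library. The last genes inside the threshold were Extl1 (adjusted p = 0.0495) and Lipo3 (0.0498), and the first outside were Zfp618 (0.0521), Slc8a1 (0.0536) and Ntrk2 (0.0536), all from edgeR. A second, descriptive measure was therefore used. A gene passed this size rule if its level differed at least 2-fold from WT in each clone, on the same side, with at least 100 reads in clone and WT together and a 95% interval of the ratio, covering counting error only, that excluded no change. It was met upwards by 205 genes (1.05%) and downwards by 482 (2.48%), of which 178 and 423 are protein coding. All 91 called genes were among them. In clone 1 alone 1088 genes lay above and 982 below, and in clone 5 alone 719 and 1084, while 56 passed in opposite directions in the 2 clones.

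Both clones lay above WT for 5690 genes (29.3%) and below WT for 6530 (33.6%), and for 7226 genes (37.2%) they lay on different sides or level. Both ratios use the same WT library, so an odd value in WT puts both clones on 1 side. Among genes with both clones on 1 side, 46.6% lay above and 53.4% below. With total counts in place of TMM the split was 36.5% above and 63.5% below, and the median ratio over all genes moved to -0.14 in clone 1 and -0.16 in clone 5. Small shifts of single genes or lists are therefore not read as a direction here.

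**Figure D1:**
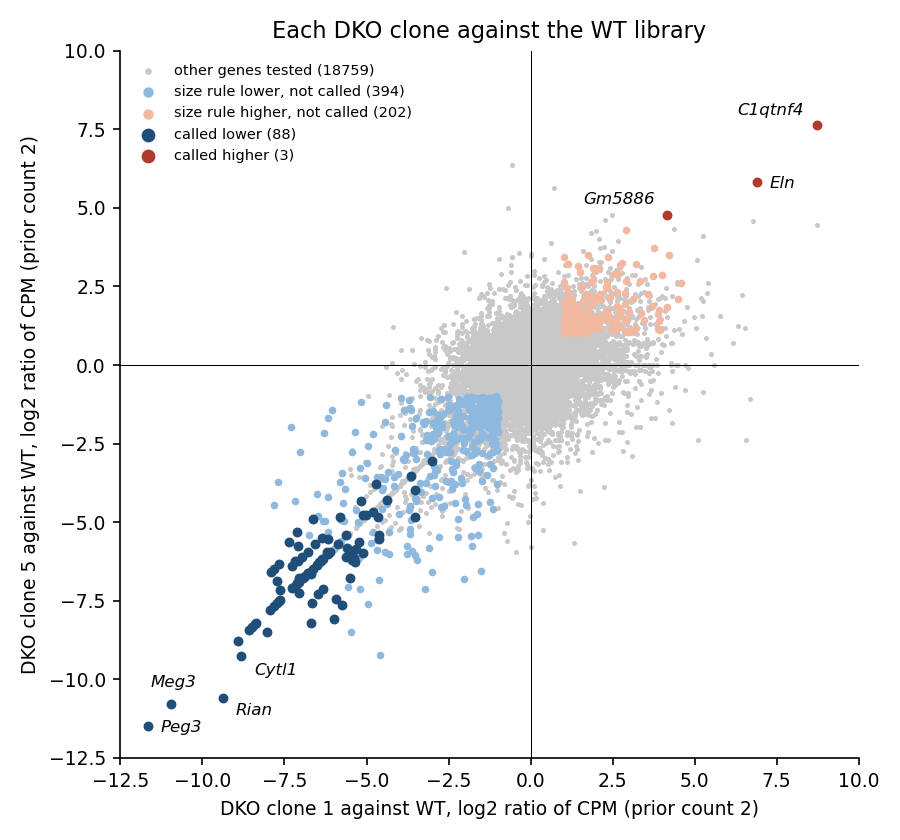
Log2 ratio of CPM against WT (prior count 2) in DKO clone 1 (x axis) and DKO clone 5 (y axis), 1 point per gene tested. The 88 genes called lower lie at the lower left and the 3 called higher at the upper right. The genes past the size rule but not called (394 lower, 202 higher) overlap them in part. Examples are Thbs4 at -5.84 and -5.69 and Dcn at 4.20 and 3.49 in clones 1 and 5. Both axes share the WT library.

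Falls to no detectable reads were frequent, and the reverse was rare. Both clones had 0 reads for 120 genes with at least 20 reads in WT, 106 of them protein coding and 32 called. Only 2 genes had 0 reads in WT and at least 20 in each clone: C1qtnf4, and Gm15635, which lies antisense to Slco2b1. A count of 0 over both clones allows up to 0.0475 CPM (3 counts), so these genes were below detection, not shown to be fully off. The 120 genes were spread over 20 chromosomes, with at most 13 on 1 of them. PRDX1MT also had 0 reads for 42 of the 120. It had at least 20 reads for 39 and was at or above WT in CPM for 24.

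Promoters are printed for 5 genes that fell, to show how much they differ in CpG content: Cdkn2a, Cdkn2b, Meg3 and Peg3, with 0 reads in both clones, and Cytl1, with 1 read left. Each line gives the 250 bases before the annotated RefSeq start (GRCm38.p6), read 5′ to 3′ on the strand of the gene, with every CG dinucleotide in capitals. Cdkn2a lies at chr4:89294620-89294869 (minus strand), Cdkn2b at chr4:89311033-89311282 (minus), Meg3 at chr12:109540746-109540995 (plus), Peg3 at chr7:6730420-6730669 (minus) and Cytl1 at chr5:37735269-37735518 (plus).
Cdkn2a: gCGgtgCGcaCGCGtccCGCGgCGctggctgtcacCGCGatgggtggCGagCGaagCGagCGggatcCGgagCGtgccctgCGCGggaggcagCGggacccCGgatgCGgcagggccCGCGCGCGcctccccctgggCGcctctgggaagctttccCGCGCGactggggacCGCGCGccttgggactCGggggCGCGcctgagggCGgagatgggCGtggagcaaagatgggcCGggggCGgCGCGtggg
Cdkn2b: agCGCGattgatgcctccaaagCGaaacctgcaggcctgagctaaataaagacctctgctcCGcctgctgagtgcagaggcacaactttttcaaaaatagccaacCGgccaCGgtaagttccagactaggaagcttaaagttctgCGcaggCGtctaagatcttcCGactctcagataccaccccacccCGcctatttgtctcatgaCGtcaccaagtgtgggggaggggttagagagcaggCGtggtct
Meg3: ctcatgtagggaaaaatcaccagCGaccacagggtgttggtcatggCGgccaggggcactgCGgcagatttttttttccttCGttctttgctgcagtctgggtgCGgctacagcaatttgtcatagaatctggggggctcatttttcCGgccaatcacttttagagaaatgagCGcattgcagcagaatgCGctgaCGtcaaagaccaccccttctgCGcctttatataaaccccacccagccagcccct
Peg3: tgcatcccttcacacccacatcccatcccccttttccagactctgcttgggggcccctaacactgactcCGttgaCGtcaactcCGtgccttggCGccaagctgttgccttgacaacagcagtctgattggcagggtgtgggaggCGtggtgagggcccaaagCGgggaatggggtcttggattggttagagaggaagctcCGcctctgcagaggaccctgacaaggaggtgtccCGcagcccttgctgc
Cytl1: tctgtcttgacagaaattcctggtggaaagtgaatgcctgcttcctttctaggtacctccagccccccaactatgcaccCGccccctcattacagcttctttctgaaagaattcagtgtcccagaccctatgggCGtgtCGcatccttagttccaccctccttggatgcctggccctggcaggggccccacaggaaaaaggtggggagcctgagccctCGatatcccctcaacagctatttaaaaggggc
The Cdkn2a stretch holds 40 CG dinucleotides, a number reached by 1.31% of all promoters of the same length in the table. Cdkn2b has 12 (33.5%), Meg3 10 (37.8%), Peg3 8 (43.0%) and Cytl1 4 (62.2%). A CpG-dense stretch thus stood before this start of Cdkn2a and a CpG-poor one before that of Cytl1. For each gene 1 start was taken, the nearest to its annotated 5′ end, and any other start is not shown. No methylation was measured in these libraries. Over whole sets the comparison is void, since the table held a promoter for 71 of the 88 genes that fell (80.7%) but for only 59.5% of the genes tested.

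Peg3, a paternally expressed zinc-finger gene (chromosome 7, 6703892 to 6730431), had 6876 reads in WT and 0 in each clone, at least 3520.0-fold lower (edgeR adjusted p = 0.00875). Its PRDX1MT count was 4. The maternally expressed noncoding RNA Meg3 (chromosome 12, 109541001 to 109571726) had 4230 reads in WT, 0 in each clone and 200 in PRDX1MT, at least 2165-fold lower in DKO (adjusted p = 0.00875). In both genes the clones were empty and PRDX1MT was far below WT too, at 0.161 CPM against 167 CPM for Peg3. For Meg3 these levels were 8.04 CPM and 103 CPM. Cdkn2a, which encodes the inhibitors p16 and p19Arf, had 434 reads in WT and 0 in the other libraries, at least 222-fold lower in DKO (adjusted p = 0.0278). Its neighbour Cdkn2b, which encodes p15, had 482 reads in WT and likewise 0 elsewhere, at least 247-fold lower (adjusted p = 0.0254). For Cdkn2a and Cdkn2b, as for Peg3 and Meg3, low counts were thus seen also in a line not labelled as lacking the Dnmt3 enzymes.

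Other genes fell to 0 in both clones while PRDX1MT kept reads. Cers4, a ceramide synthase, had 708 reads in WT, 755 in PRDX1MT and 0 in both clones, at least 362-fold lower in DKO (edgeR adjusted p = 0.0191). The open reading frame 5730409E04Rik had 1043 reads in WT and 540 in PRDX1MT against 0 and 0, at least 534-fold lower (adjusted p = 0.0171). Ror2, a receptor tyrosine kinase for Wnt5a, had 251 reads in WT, 474 in PRDX1MT and 0 in both clones, at least 128-fold lower (adjusted p = 0.0244). Slit3, a secreted guidance ligand, had 233, 970, 0 and 0 reads in WT, PRDX1MT and clones 1 and 5, at least 119-fold lower (adjusted p = 0.0209). In each of these 4 genes the clones were empty and both other libraries were not. Others were low in all 3 edited lines: Arhgef5, a guanine nucleotide exchange factor, had 822 reads in WT, Sema3e, a secreted semaphorin, 775, and Ptprz1, a receptor tyrosine phosphatase, 453, and none of them had a read in PRDX1MT or in either clone. Ccser1 had 526 reads in WT, 3 in PRDX1MT and 0 in the clones, and Cd24a, a small surface glycoprotein, 721, 32 and 0.

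Several genes were left with traces rather than with none. Cytl1, a secreted cytokine-like factor made by cartilage cells (chromosome 5, 37735519 to 37739820), had 1478 reads in WT, 25 in PRDX1MT, 1 in clone 1 and 0 in clone 5 (edgeR adjusted p = 0.0109). With 1 read left the ratio is poorly bounded: 2269.8-fold lower with a 95% counting interval of 407 to 89714. Ripk3, the kinase that triggers necroptosis, had 870 reads in WT, 1 in clone 1, 0 in clone 5 and 2 in PRDX1MT, 1336-fold lower in DKO (239 to 52833, adjusted p = 0.0191). Gria3, a glutamate receptor subunit on the X chromosome, had 1310 reads in WT, 6 and 10 in clones 1 and 5 and 28 in PRDX1MT, 126-fold lower in DKO (77.1 to 221). Casc4 had 1301 reads in WT, 5 and 16 in the clones and 550 in PRDX1MT, 95.1-fold lower (62.0 to 154, adjusted p = 0.0278). No value of either clone came near that of WT in these 4 genes.

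Other genes with many WT reads fell to a low but clearly measured level. Trpv4, a calcium channel opened by stretch and osmotic change (chromosome 5, 114622152 to 114658421), was at 97.3 CPM in WT, 4.68 CPM in clone 1 and 4.87 CPM in clone 5, 20.4-fold lower (18.2 to 23.0; edgeR log2 ratio -4.35, SE 0.44, adjusted p = 0.0191). The 2 clones differed little there, and PRDX1MT had 54.8 CPM. Vldlr, a lipoprotein and reelin receptor, had 50.4 CPM in WT against 4.35 and 1.71 CPM, 15.8-fold lower (adjusted p = 0.048, but 0.0592 with median-of-ratios scaling and 0.0614 with total counts). Prex2, an exchange factor for Rac, had 40.1 CPM in WT against 4.96 and 4.76 CPM, 8.23-fold lower (7.28 to 9.32, adjusted p = 0.0398), and was higher than WT in PRDX1MT at 74.97 CPM. Gas6, the ligand of the TAM receptor kinases, had 34.4 CPM in WT, 64.0 CPM in PRDX1MT and 0.701 and 0.254 CPM in the clones, 68.0-fold lower (47.9 to 99.7, adjusted p = 0.0191). For Prex2 and Gas6 PRDX1MT thus lay above WT and both clones far below it.

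More of the genes with the most WT reads fell to about 1 CPM or less. Penk, the precursor of enkephalin peptides, had 49.3 CPM in WT, 1.09 and 0.617 CPM in the clones and 0 reads in PRDX1MT (edgeR adjusted p = 0.0191). Bnc2, a zinc-finger protein of mesenchyme and skin, had 33.1 CPM in WT against 0.280 and 1.05 CPM (adjusted p = 0.0321), with 14.1 CPM in PRDX1MT. Emb, an adhesion partner of monocarboxylate transporters, had 26.8 CPM in WT against 0.140 and 0.617 CPM (adjusted p = 0.0321), with 4.90 CPM in PRDX1MT. Thy1 had 29.0 CPM in WT, 0.757 and 1.38 CPM in the clones and 0.884 CPM in PRDX1MT, 28.2-fold lower in DKO (21.9 to 36.7, adjusted p = 0.0321). It is a defining surface marker of mesenchymal stromal cells, and all 3 edited lines were low for it. Exons of Penk, Emb and Gas6, and those of Meg3, Cers4, Arhgef5, Mest, Rspo3, Kcna6, Nlrx1 and Eln, overlap genes on the other strand.

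**Figure D2:**
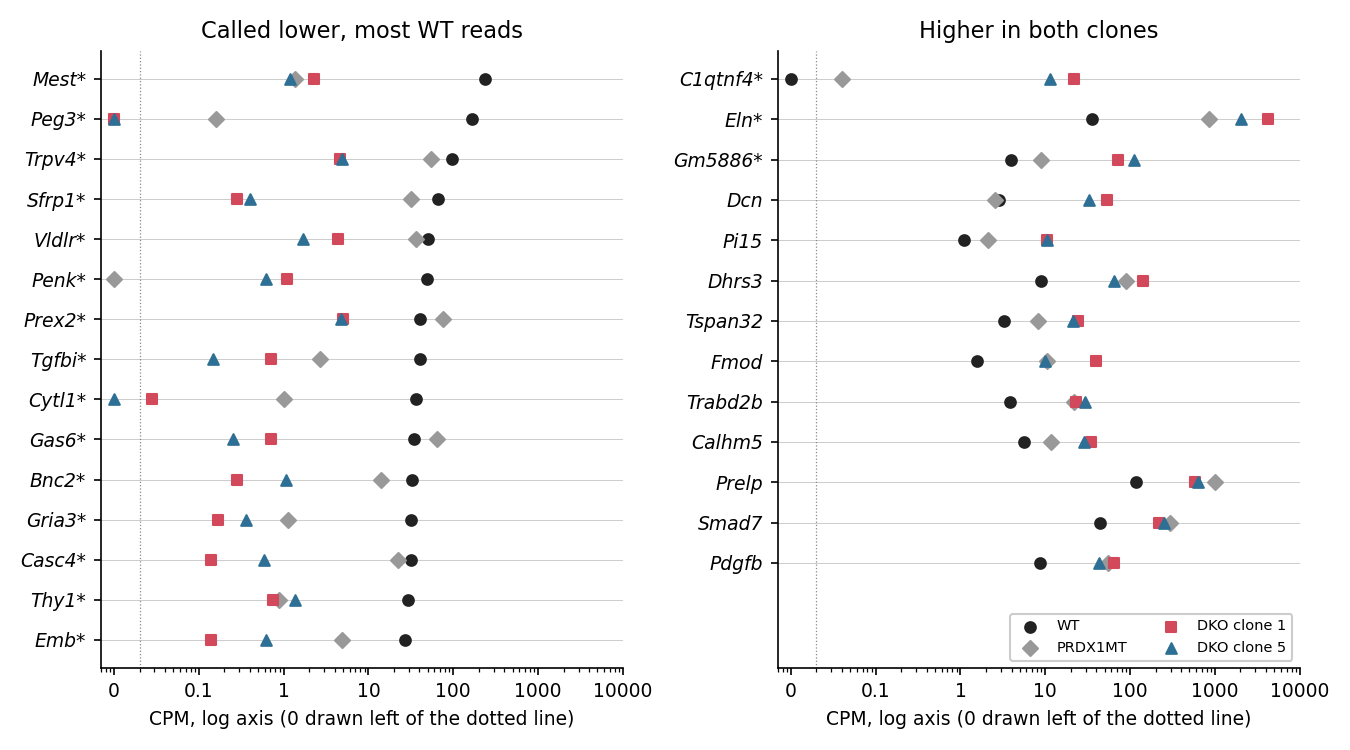
CPM per library on a log axis, with 0 drawn left of the dotted line, for the 15 protein-coding genes called lower with the most WT reads (left) and the 13 genes called higher or furthest above WT in both clones with at least 10 CPM in each (right, called genes added); asterisks mark genes called by edgeR. On the left both clones lie below WT in every row, with PRDX1MT on either side, and on the right both clones lie above WT in every row.

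Of the 3 genes that rose, 2 encode secreted proteins. Eln, the gene of elastin, the stretchable core of elastic fibres (chromosome 5, 134702593 to 134747323), had 1461 reads in WT, 152402 in clone 1 and 55236 in clone 5. This is 35.5 CPM against 4273 and 2006 CPM, 92.5-fold higher (87.9 to 97.5; edgeR log2 ratio 6.47, SE 0.96, adjusted p = 0.0441). PRDX1MT was also above WT, at 850 CPM. C1qtnf4, which encodes a secreted C1q/TNF-related protein (chromosome 2, 90885860 to 90890525), had 0 reads in WT, 1 in PRDX1MT, 781 in clone 1 and 315 in clone 5, at least 238-fold higher (adjusted p = 0.0244). Gm5886 (chromosome 6, 133763999 to 133767404) is annotated as a transcribed unprocessed pseudogene. It had 3.99 CPM in WT against 71.6 and 112 CPM, 22.3-fold higher (19.13 to 26.3, adjusted p = 0.0321), with 8.92 CPM in PRDX1MT. Whether its reads come from a related copy was not tested. The Eln call did not hold with median-of-ratios scaling (adjusted p = 0.0522) or total counts (0.0614).

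Below the threshold, the genes furthest above WT in both clones included secreted matrix and signalling genes. Dcn, the gene of the collagen-binding proteoglycan decorin, had 2.84 CPM in WT, 53.3 CPM in clone 1 and 32.5 CPM in clone 5, 15.6-fold above WT (12.9 to 18.9), with an edgeR adjusted p of 0.0601. Fmod, for fibromodulin of the same proteoglycan family, had 1.58, 39.4 and 10.0 CPM (16.8-fold, adjusted p = 0.262), and Prelp had 117, 587 and 637 CPM (5.21-fold, adjusted p = 0.259). Dhrs3, a retinaldehyde reductase, had 8.80 CPM in WT, 142 and 64.1 CPM in the clones (12.3-fold, adjusted p = 0.115) and 88.9 CPM in PRDX1MT. Tspan32, Trabd2b, Calhm5, Pi15, Smad7 and Pdgfb were 5.20-fold to 9.68-fold above WT, with adjusted p from 0.145 to 0.191. None of these 10 genes passed the test. In 5 of the 10 (Dhrs3, Fmod, Prelp, Smad7 and Pdgfb) the PRDX1MT level was at or above that of a clone.

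Imprinted genes were looked at by the copy listed as expressed, and which copy these cells use was not measured. Of 22 tested genes listed as expressed from the paternal copy, 2 fell (Peg3 and Mest), 7 lay past the size rule below WT and none above. Over all genes tested 0.453% fell, 2.48% lay past the size rule below and 1.05% above, and the counts of every list are to be read against these shares. All lists were chosen with earlier results of these data known, so an excess over these shares may partly follow from that choice. The median log2 ratio of the 22 was -0.58 in the fit, against 0.03 over all genes tested. Mest, a hydrolase-like protein of mesoderm (chromosome 6, 30723547 to 30748465), was at 240.0 CPM in WT, 2.30 and 1.20 CPM in the clones and 1.37 CPM in PRDX1MT, 132-fold lower in DKO (110.0 to 160.0, edgeR adjusted p = 0.0107), and its exons overlap Copg2 on the other strand. Peg10, a retrotransposon-derived gene, had 57.2 CPM in WT, 0.224 CPM in clone 1 and 4.25 CPM in clone 5 (adjusted p = 0.288). Its neighbour Sgce, for epsilon-sarcoglycan, had 33.1, 2.55 and 12.9 CPM (adjusted p = 0.852), and Plagl1, a zinc-finger regulator, 7.70, 0.561 and 0.291 CPM (adjusted p = 0.0896). The 2 clones thus differed widely from each other at Peg10 and Sgce and both stood below WT.

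Genes listed as maternally expressed did not move as 1 group. Of 22 tested, 3 fell and all 3 are noncoding RNAs of the Meg3 locus, while 3 lay past the size rule above WT (Dcn, Tspan32 and Gnas), and the median was 0.05. Whether the listing of Dcn, Tspan32 and Gnas holds in these cells was not tested. Rian had 3741 reads in WT, 48 in PRDX1MT, 3 in clone 1 and none in the other clone, 1915-fold lower (655 to 9290.6, edgeR adjusted p = 0.0107). Mirg, the host of a large microRNA cluster, had 414, 7, 4 and 0 reads (adjusted p = 0.0489, but 0.0592 with median-of-ratios scaling and 0.0621 with total counts). Rtl1, on the opposite strand between Meg3 and Rian and used from the paternal copy, had 260, 10, 1 and 4 reads (adjusted p = 0.0593), and its exons overlap microRNA genes on the other strand. Dlk1, the paternally used growth regulator of the same locus, had 64, 16, 55 and 0 reads (adjusted p = 0.9996), near WT in clone 1 and at 0 in clone 5. Gnas, for a stimulatory G protein subunit, had 22.4 CPM in WT and 52.5 and 51.7 CPM in the clones, 2.33-fold above WT (2.17 to 2.51, adjusted p = 0.833), and it overlaps Nespas on the other strand.

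The Wnt list, chosen like the others with earlier results known, held 5 falls. Wnt proteins are secreted ligands that bind Frizzled receptors with co-receptors, and act through beta-catenin and TCF/LEF factors or through Ror2. Of 38 Wnt pathway genes tested, 5 fell, 9 lay past the size rule below WT (against 2.48% of all genes) and none above. The median log2 ratio was -0.29 in the fit, -0.18 in clone 1 and -1.14 in clone 5. Among inhibitors, Sfrp1, a secreted Wnt-binding protein (chromosome 8, 23411502 to 23449632), was at 66.0 CPM in WT, 31.9 CPM in PRDX1MT and 0.280 and 0.399 CPM in the clones, 199-fold lower (130.0 to 321, edgeR adjusted p = 0.00875). Among receptors, Fzd3 had 329 reads in WT, 22 in PRDX1MT and 0 in both clones, at least 168-fold lower in DKO (adjusted p = 0.0306). Fzd9 had 21.6 CPM in WT against 0.336 and 0.690 CPM in the clones, 43.9-fold lower (adjusted p = 0.0278). Ror2, with 251 reads in WT and none in the clones, is described above. Rspo3, a secreted enhancer of Wnt signals that holds receptors at the surface, had 21.6 CPM in WT against 0.393 and 0.327 CPM in the clones. This is 59.4-fold lower (39.4 to 94.2, adjusted p = 0.0191), and PRDX1MT had 10.7 CPM. Both a secreted inhibitor and a secreted enhancer were therefore among the 5.

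The other 4 Wnt genes past the size rule did not pass the test. Wnt5a, a ligand of Ror2, had 22.9 CPM in WT, 5.64 CPM in clone 1 and 4.10 CPM in clone 5 (edgeR adjusted p = 0.215). Wnt5b had 7.22, 0.533 and 0.182 CPM (adjusted p = 0.121). The transcription factors Tcf7 (6.42, 2.64 and 3.05 CPM) and Lef1 (2.43, 1.18 and 0.981 CPM) had adjusted p of 0.9996 each. Tcf7 and Lef1 are also common readouts of the beta-catenin branch, and Axin2, the most used one, had under 0.2 CPM in WT and both clones, too low to read.

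Of 23 chondrogenic genes tested, 12 lay below WT in both clones (33.6% of all genes) and 5 above (29.3%). Of the same 23, 2 fell, Cytl1 and Acan (0.453% of all genes), 7 lay past the size rule below WT (2.48%) and 1 above (1.05%), with a median log2 ratio of -0.65 in the fit, -0.76 in clone 1 and -1.50 in clone 5. Acan, for aggrecan, the main proteoglycan of cartilage, had 704 reads in WT, 3 in PRDX1MT, 4 in clone 1 and none in clone 5, 270.3-fold lower in DKO (105 to 995, edgeR adjusted p = 0.0321). Col11a1, a fibrillar collagen of cartilage, had 462 CPM in WT, 440 CPM in PRDX1MT and 32.0 and 56.7 CPM in the clones, 10.8-fold below WT (10.4 to 11.3, adjusted p = 0.0537). Cnmd, for chondromodulin, had 51.4, 6.42 and 0.472 CPM in WT, clone 1 and clone 5 (adjusted p = 0.436), with 0.322 CPM in PRDX1MT. Sox5, a partner of the master regulator Sox9, had 18.2, 0.365 and 2.61 CPM (adjusted p = 0.375). Sox9 itself had 422, 469 and 643 CPM, and Col2a1, the main collagen of cartilage, had 1234, 163 and 1854 CPM with the clones on both sides of WT. The exception above WT was Comp, a matrix protein of tendon and cartilage, with 3.28, 21.4 and 7.66 CPM.

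Elastic fibre genes were split. Of 22 tested, Eln rose and Ltbp4 fell, and 3 lay past the size rule above and 3 below WT, with a median log2 ratio of -0.18. Ltbp4, a latent TGF-beta binding protein that also helps elastin assemble, had 16.1 CPM in WT against 0.589 and 0.508 CPM, 29.0-fold lower (20.6 to 42.0, edgeR adjusted p = 0.0278). Fbn2, a microfibril protein, had 242 CPM in WT against 4.26 and 18.4 CPM (adjusted p = 0.0819), and Efemp1, for fibulin-3, 5.42 against 1.49 and 0.690 CPM (adjusted p = 0.654). On the other side Fbln2, for fibulin-2, had 863 CPM in WT and 2176 and 2335 CPM in the clones, and Mfap5, a microfibril-associated protein, 5.01 CPM in WT and 40.2 and 10.4 CPM in the clones. The crosslinking enzyme Lox had 2296 CPM in WT, with clone 1 below it at 1519 CPM and clone 5 above it at 2424 CPM.

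Of 36 collagen genes tested, 1 fell, 4 lay past the size rule below WT and 1 above, and the median log2 ratio was 0.33. Col8a2, a short-chain network collagen, had 23.5 CPM in WT, 48.6 CPM in PRDX1MT and 1.82 and 2.00 CPM in the clones, 12.4-fold lower (10.2 to 15.1, edgeR adjusted p = 0.0321). Col9a1 had 65.8, 18.7 and 1.45 CPM and Col9a3 32.9, 7.74 and 2.40 CPM in WT and clones 1 and 5, and both are fibril-associated collagens of cartilage. The gene above WT was Col4a1 of the basement membrane, with 599, 1614 and 1206 CPM. Of 32 proteoglycan and hyaluronan genes tested, 15 lay above WT in both clones (29.3% of all genes) and 7 below (33.6%). By the size rule 5 were above WT (Dcn, Lum, Fmod, Prelp and Gpc6) and 3 below (Acan, Omd and Ogn), with a median of 0.49, and only Acan was called. Omd and Ogn, for osteomodulin and osteoglycin, belong with Dcn, Lum, Fmod and Prelp to the small leucine-rich proteoglycans, so members of 1 family lay on both sides. Omd had 24.7 CPM in WT against 2.92 and 2.07 CPM (adjusted p = 0.0598), and Lum, for lumican, 0.851 CPM in WT against 5.86 and 8.14 CPM (adjusted p = 0.32).

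Matricellular proteins, which sit in the matrix and tune cell behaviour, lay on both sides. Of 30 tested, Cytl1 and Tgfbi fell (0.453% of all genes), 6 lay past the size rule below WT (2.48%) and 5 above (1.05%), with a median log2 ratio of 0.41. Tgfbi, an adhesion protein that binds integrins, had 40.0 CPM in WT, 2.69 CPM in PRDX1MT and 0.701 and 0.145 CPM in the clones, 87.3-fold lower (60.5 to 131, edgeR adjusted p = 0.0314). Within the CCN family the members lay apart: Ccn3 had 420.3 CPM in WT against 111 and 85.4 CPM (adjusted p = 0.209), while Ccn2 had 69.4 CPM in WT against 195 and 541 CPM, Ccn5 78.4 against 384 and 236 CPM and Ccn1 432 against 1369 and 870.0 CPM. Thbs4, for thrombospondin 4, had 121 reads in WT and 0 in both clones (adjusted p = 0.0701), and Thbs1 had 107 CPM in WT against 219 and 422 CPM. None of the matricellular genes above WT passed the test.

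**Figure D3:**
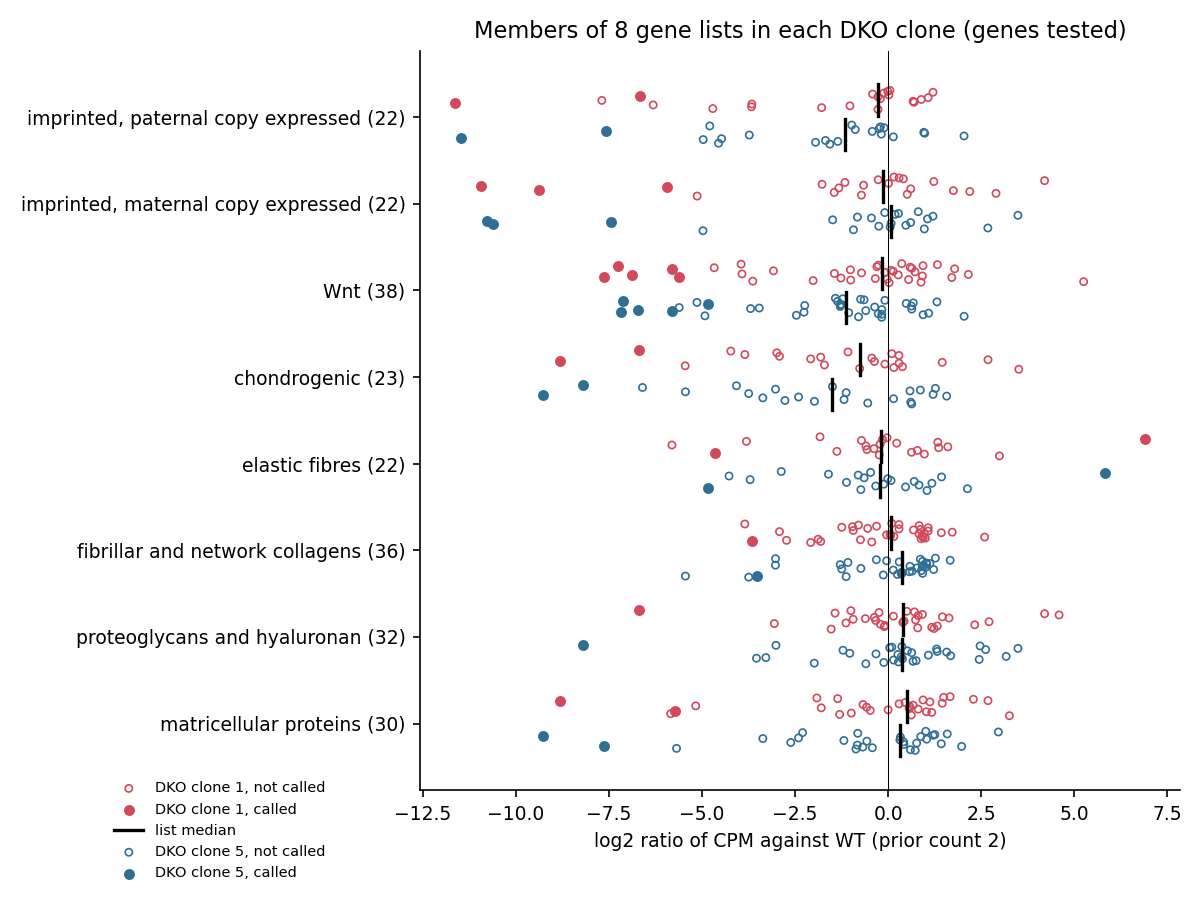
Log2 ratio of CPM against WT (prior count 2) for the tested members of 8 gene lists (number in brackets) in DKO clone 1 and DKO clone 5. Filled points are genes called by edgeR, open points are not called, and black bars are list medians. Each list holds a called gene well below WT. In the Wnt, chondrogenic, elastic fibre, matricellular and both imprinted lists, uncalled members also reach far below it. In the elastic fibre list Eln stands alone far above WT.

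Laminins, integrins and matrix proteases held no call. Of 29 laminin and integrin genes tested, Itgb4 and Lamb3, which belong to the attachments of epithelial cells, lay past the size rule above WT and Lama2, Itga3 and Itga8 below. Itga3, a laminin receptor subunit, had 11.2 CPM in WT, 0.308 CPM in clone 1, 0 reads in clone 5 and 13.6 CPM in PRDX1MT (64.2-fold below WT, edgeR adjusted p = 0.108). Itgb4 had 12.3, 186 and 42.1 CPM in WT and clones 1 and 5. Of 31 proteases and inhibitors, 4 lay past the size rule above WT, among them Mmp2, Timp2 and Adamts1, and 3 below, Adamts6, Adamts9 and Adamts14. Mmp2, a gelatinase, had 309.9 CPM in WT, 1137 and 684 CPM in the clones and 361 CPM in PRDX1MT. Pappa, which cleaves IGF binding proteins, had 4.45, 46.3 and 14.3 CPM in WT and the clones. Clone 1 was the higher of the clones for Itgb4, Mmp2 and Pappa.

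Hormone and morphogen genes outside these families gave no call. Aldh1a1, which makes retinoic acid, had 12 reads in WT against 163 and 125 (15.6-fold above, edgeR adjusted p = 0.183), on the same side as Dhrs3, which works against it. Gli2, a Hedgehog transcription factor, had 20.6 CPM in WT against 5.83 and 4.90 CPM (adjusted p = 0.259), and 36.4 CPM in PRDX1MT. Cdh19, a type II cadherin, had 166 reads in WT, 2 in clone 1 and 0 in clone 5 (127-fold below WT, adjusted p = 0.0701). Cth, which makes cysteine from cystathionine and was the only cobalamin and one-carbon gene of 34 past the size rule, had 8.72 CPM in WT against 1.07 and 2.40 CPM (adjusted p = 0.449).

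Among guidance molecules, which steer axons and vessels, 3 of the called genes are secreted ligands or their receptor. Sema3e was 1 of 29 semaphorins, plexins and neuropilins tested, of which 1 fell, and Nrp2, a co-receptor of the class, lay above WT (114 CPM against 311 and 352 CPM, 2.88-fold, edgeR adjusted p = 0.656). Of 16 slit, netrin and related genes, Slit3 and its receptor Robo1 fell. Robo1 had 236 reads in WT, 0 in PRDX1MT, 0 in clone 1 and 1 in clone 5, 362-fold lower in DKO (64.4 to 14375, adjusted p = 0.0373). Slit3 by contrast was higher in PRDX1MT than in WT, so ligand and receptor did not share a pattern across the lines. Of 17 ephrins and Eph receptors none was called, and Efna5 had 40.2 CPM in WT, 0.505 CPM in clone 1 and 12.4 CPM in clone 5, with the clones far apart.

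Ion channels gave 3 falls in 38 tested, against 0.453% of all genes. Besides Trpv4, Kcna6, a voltage-gated potassium channel, had 194 reads in WT and 0 in the other 3 libraries (edgeR adjusted p = 0.0441, but 0.0522 with median-of-ratios scaling and 0.0578 with total counts). Piezo2, a touch-sensing mechanosensitive channel, had 184 reads in WT, 146 in PRDX1MT and 0 in both clones, at least 94.2-fold lower (adjusted p = 0.0321). Its relative Piezo1 had 322 CPM in WT against 350.1 and 453 CPM, not called. Cacna1h, a T-type calcium channel, had 4.69 CPM in WT against 0.112 and 0.0363 CPM (adjusted p = 0.0596), and Cacna1g of the same type had 31.5 CPM in WT against 272 and 136 CPM (adjusted p = 0.226). Related channels of 1 type thus lay on opposite sides of WT. In all 7 channels lay past the size rule below WT (2.48% of all genes) and 1 above (1.05%), and the median log2 ratio was 0.21.

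Of 42 BMP and TGF-beta genes tested, 20 lay above WT in both clones (29.3% of all genes) and 6 below (33.6%), shares that move with the scaling, and none was called. Of the 42, 6 lay past the size rule above WT (1.05% of all genes) and 2 below (2.48%), with a median log2 ratio of 0.28. The 6 were feedback inhibitors, secreted antagonists and Id factors. Smad7 and Smad6, which block the receptors, had 44.5 and 56.9 CPM in WT, 218 and 167 CPM in clone 1 and 248.8 and 183 CPM in clone 5 (edgeR adjusted p = 0.191 and 0.531). Id1 had 119 CPM in WT against 328 and 270 CPM, and Id3 180 CPM against 393 and 446 CPM; both are inhibitory helix-loop-helix targets of BMP. The antagonist Nbl1 had 24.1 CPM in WT against 91.4 and 99.5 CPM and Fst, for follistatin, 12.7 against 35.5 and 46.5 CPM, whereas the antagonist Grem1 had 91.6 against 41.0 and 18.4 CPM. In PRDX1MT Smad7 (292 CPM), Smad6 (256 CPM) and Fst (79.1 CPM) were above both clones, so Fst lies below the 2 other libraries joined (log2 ratio -0.16).

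Notch is a receptor family driven by ligands on neighbouring cells. Of 16 tested Notch genes none was called, 3 lay past the size rule above WT and 1 below, with a median of 0.41. The ligand Jag1 had 95.9 CPM in WT, 284 and 538 CPM in the clones and 345 CPM in PRDX1MT (edgeR adjusted p = 0.499). The targets Hey1 and Hey2 had 2.28 and 1.92 CPM in WT, 11.6 and 4.85 CPM in clone 1 and 7.88 and 5.99 CPM in clone 5. Hey1 reached 50.4 CPM in PRDX1MT, so its direction in DKO depends on which other library it is set against. The receptor Notch3 had 57.5 CPM in WT against 17.0 and 16.2 CPM in the clones (adjusted p = 0.231).

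Growth factor genes included 1 call. Of 36 PDGF, VEGF, HGF and EGF ligands and receptors tested, Gas6 fell, 4 lay past the size rule below WT and 1 above. The receptor Egfr had 70.4 CPM in WT against 14.4 and 7.74 CPM (6.12-fold below, 5.64 to 6.64, edgeR adjusted p = 0.108), and Flt1, a VEGF receptor, 27.3 against 0.365 and 10.2 CPM. Hgf, a ligand, had 47.3 against 21.5 and 6.90 CPM (adjusted p = 0.85). The ligand Pdgfb had 8.72 CPM in WT against 64.3 and 42.7 CPM (6.30-fold above, adjusted p = 0.152). Of 17 FGF genes tested, Fgfr3 had 36.1 CPM in WT against 14.9 and 10.6 CPM, and Fgfr2 94.97 against 43.0 and 3.92 CPM. Igfbp5, which binds IGFs, had 319 reads in WT, 2 in PRDX1MT, 4 in clone 1 and 0 in clone 5 (adjusted p = 0.0601).

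Of 29 CDK inhibitors and G1 genes tested, only Cdkn2a and Cdkn2b fell. Cdkn1a, which encodes p21, had 126 CPM in WT, 384 and 275 CPM in the clones and 305 CPM in PRDX1MT (2.66-fold above, edgeR adjusted p = 0.859). The p53 target list (31 tested) held 2 falls. Ddit4l, an inhibitor of mTOR signalling, had 177 reads in WT, 117 in PRDX1MT and 0 in both clones (adjusted p = 0.0338). Perp, a desmosome protein, had 414 reads in WT, 8 in PRDX1MT and 7 and 2 in clones 1 and 5 (adjusted p = 0.0321). None of 42 DNA replication and mitosis genes was called. Their median log2 ratio was -0.30 in clone 1 and 1.02 in clone 5, and their summed level 2921 CPM in WT, 2282 CPM in clone 1 and 5818 CPM in clone 5, with WT between the clones on both measures. Both clones lay above WT for 14 of the 42 genes (29.3% of all genes) and below WT for 0 (33.6%).

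Of 67 mesenchymal transcription factors tested, Erg fell, 5 lay past the size rule below WT and 2 above. Erg, an ETS factor of cartilage and endothelium (chromosome 16, 95359169 to 95586593), was at 24.1 CPM in WT, 21.5 CPM in PRDX1MT and 0.645 and 0.327 CPM in the clones, 47.5-fold lower (33.4 to 69.9, edgeR adjusted p = 0.0227). The others below WT were Gata6, Pax9, Osr2 and Zic2, for example Gata6 with 8.36 CPM in WT against 1.65 and 2.22 CPM (adjusted p = 0.439). Klf4 and Foxs1 lay above. Of 18 osteogenic genes, none was called, 2 lay past the size rule below WT (Omd and Msx1) and the median log2 ratio was -0.73. Runx2, the bone regulator, had 96.4 CPM in WT against 61.1 and 50.2 CPM. Adipogenic (22 tested), smooth muscle (24) and skeletal muscle (16) lists held no call.

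Several metabolic lists held 1 fall each, and the interferon and chemokine lists none. Of 30 sphingolipid genes, Cers4 alone fell. Gstt3, a glutathione transferase, was the only called gene of 40 glutathione and Nrf2 genes, with 429 reads in WT, 71 in PRDX1MT, 0 in clone 1 and 2 in clone 5, 329-fold lower in DKO (90.6 to 2729, edgeR adjusted p = 0.0321). Of 24 cholesterol synthesis and uptake genes, Vldlr fell, and the synthesis enzyme Lss lay past the size rule below WT (177, 81.5 and 58.4 CPM; adjusted p = 0.677). Among 31 interferon response genes none was called. Both clones lay below WT for 15 of them (33.6% of all genes) and above WT for 0 (29.3%), 2 lay past the size rule below WT and none above, and the median log2 ratio was -0.41 in the fit, -0.05 in clone 1 and -1.21 in clone 5. Ifih1, the sensor MDA5, had 101 reads in WT, 1 in PRDX1MT and 0 in both clones (adjusted p = 0.0869). Among 31 chemokines and cytokines none was called, with Cxcl12 at 808 CPM in WT against 2809 and 2207 CPM and Ccl7 at 1.07 against 19.8 and 3.99 CPM. Il13ra1, a receptor of interleukin 13, had 227 reads in WT, 0 in PRDX1MT, 0 in clone 1 and 2 in clone 5 (adjusted p = 0.0601).

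Germline genes that methylation commonly holds silent gave no call. Of 55 germline genes of that kind, 10 had enough reads to test, none was called or past the size rule in either direction, and the list's summed level was 11.3 CPM in WT, 8.02 CPM in clone 1 and 7.08 CPM in clone 5. The DNA methylation machinery showed no call either (8 tested). Dnmt1 had 148 CPM in WT, 112 CPM in clone 1 and 275 CPM in clone 5, and Uhrf1 98.7, 90.5 and 368 CPM, with the clones on both sides of WT. Among 13 demethylation genes Gadd45g had 11.5 CPM in WT against 46.2 and 52.4 CPM (4.24-fold above, edgeR adjusted p = 0.236) and Tet1, an enzyme that oxidises methylcytosine, 28.7 against 10.2 and 6.32 CPM (3.38-fold below, adjusted p = 0.449). In 11 of the 53 lists no member was called or past the size rule: these also included methyl-CpG readers, H3K9 and HUSH repressors, Polycomb, X inactivation, Hox, replication, the immune and neural markers and the Prdx1 neighbourhood. In all, 23 lists held a gene that fell and 2 a gene that rose. Lists share members, so genes such as Cytl1 and Acan count in more than 1 of them.

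Few called genes had another called gene nearby. Of 90 called genes with a position, 10 had another called gene within 500 kb. The largest cluster was the noncoding run from Meg3 over Rian and Gm37899 to Mirg, 189 kb from first to last left end, in which Rtl1 was low as well. Cdkn2a and Cdkn2b lie 31.8 kb apart. Their neighbour Mtap, a methylthioadenosine phosphorylase, had 8066 reads in WT, 4962 in clone 1 and 4405 in clone 5. In PRDX1MT Mtap had 2121 reads. The cause of the loss of Cdkn2a and Cdkn2b reads was not tested. Thy1 and Nlrx1, an innate immune regulator of mitochondria, lie 209 kb apart with Usp2, Mcam and Cbl between them. None of those was called, and Usp2, a deubiquitinase, lay past the size rule above WT (362, 1075 and 571 reads in WT and the clones). Nlrx1 had 310 reads in WT, 467 in PRDX1MT and 6 in each clone (edgeR adjusted p = 0.0278). Col8a2 and 5730409E04Rik lie 323 kb apart, and the argonaute genes Ago1, Ago3 and Ago4 between them were not called. Eva1b, on the far side of Col8a2, had 749, 38 and 44 reads in WT and the clones (adjusted p = 0.0598).

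**Figure D4:**
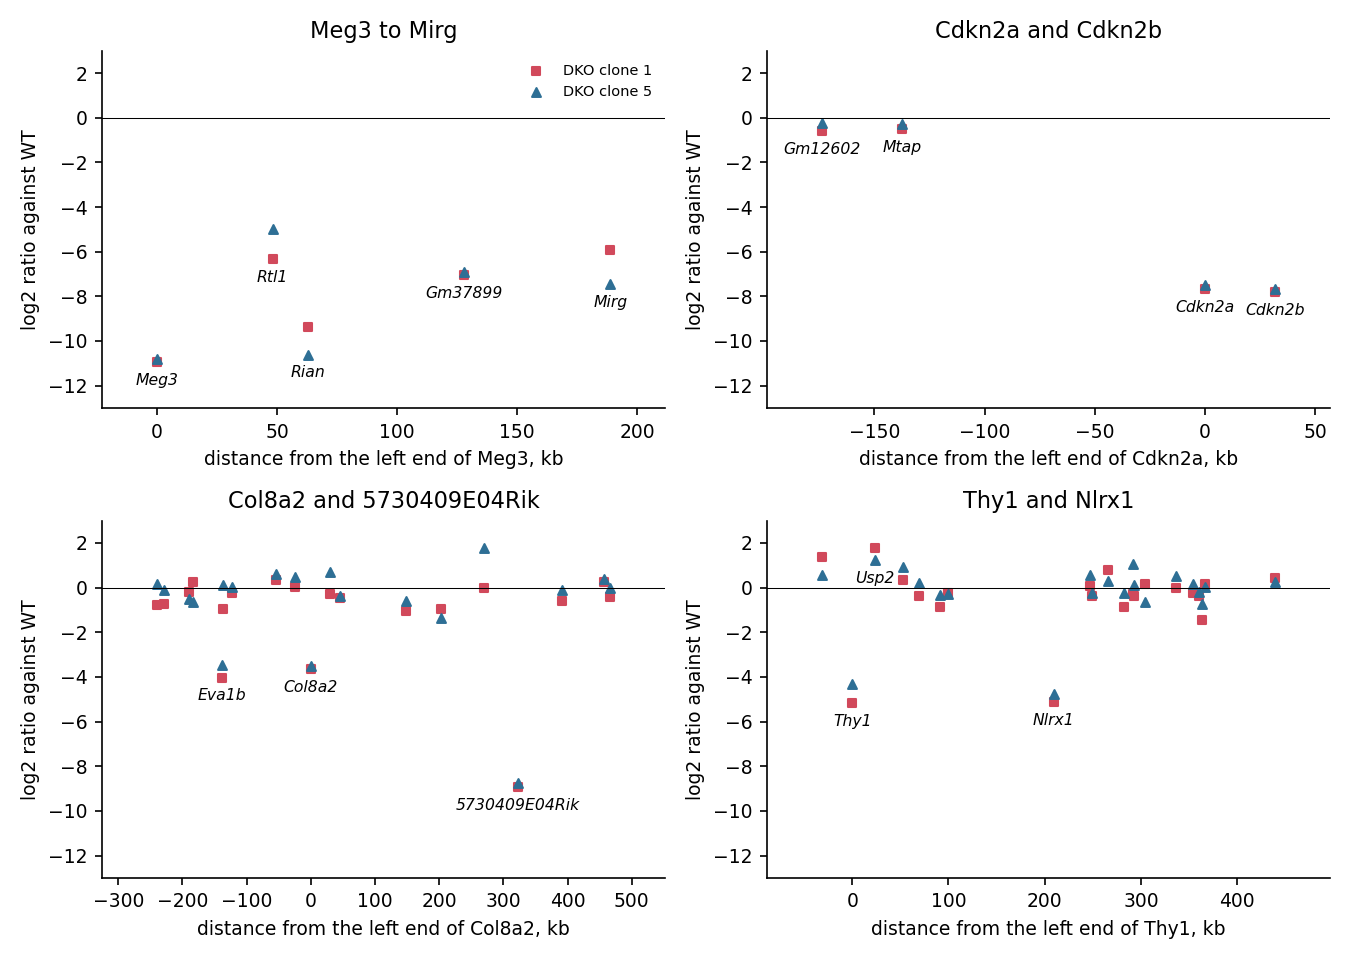
Log2 ratio against WT (prior count 2) of genes with at least 100 reads in WT around the 4 groups of neighbouring called genes, by distance in kb from the left end of the first gene named in each panel. The genes of the Meg3 run (Rtl1 included) and the Cdkn2a and Cdkn2b pair lie between -4.97 and -10.95, whereas the uncalled genes around Cdkn2a, Col8a2 and Thy1 lie between -1.46 (Rps25) and 1.77 (Clspn), with Eva1b (-4.03 and -3.46) as the exception.

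No whole chromosome stood far from WT in both clones. The median log2 ratio of the genes on a nuclear chromosome lay between -0.22 and 0.28 in either clone. Chromosome 6 had 0.17 in clone 1 and 0.23 in clone 5, chromosome 4 had -0.22 and 0.22, and chromosome 16 had 0.04 and 0.28. The 30 mitochondrially encoded genes tested lay on both sides of WT, with medians of 0.23 for clone 1 and -0.68 for clone 5.

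How far the calls carry depends on the libraries in the fit. With clone 1 left out and WT and PRDX1MT joined as control, edgeR called 21 genes (17 lower, 4 higher), and with clone 5 left out 92 (55 lower, 37 higher). Joining the controls sets genes that are low in PRDX1MT, such as Peg3, Mest, Penk and Thy1, against a control that is itself spread out. Of the 47 called genes picked by the naming rule, 7 were called in both of these fits, with both clones against the joined control, and under each other setting but the stricter filter: 5730409E04Rik, C1qtnf4, Casc4, Cers4, Erg, Gas6 and Sfrp1. A filter of 1 CPM in 2 libraries left 0 calls by edgeR, with 490 genes at an unadjusted p under 0.05.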

How the data were processed

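Gene-level read counts, 1 table per library, were used as the authors deposited them. Ribosomal RNA was depleted and a stranded kit for total RNA was used, per the labels' protocols. The submitters' processing notes name STAR 2.6.1d and the mm10 build. Not given in the sources used here are the counting program, its annotation and its use of strand. The deposited counts held 54532 genes, of which 54495 were found by identifier in GENCODE M21 (GRCm38). Totals were 37685798 counts in WT, 34901511 in clone 1, 27789693 in clone 5 and 27570136 in PRDX1MT, with reads in 25191 to 26537 genes. A count of 3, the limit that 0 counts allow, equals 0.0729 CPM in WT, 0.0841 CPM in clone 1 and 0.109 CPM in clone 5. Intervals and these limits cover counting error only, because the reads carry no molecular identifiers and may repeat a molecule.

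All 4 libraries entered 1 edgeR 4.0.16 quasi-likelihood fit (R 4.3.3; TMM scaling, edgeR's own filter by group, 3 groups, 1 residual degree of freedom, prior df 6.54) with Benjamini-Hochberg adjustment over 19446 genes at 0.05. PRDX1MT was fitted as a group of its own. Per-clone log2 ratios used a prior count of 2, and pooled folds used the summed reads of both clones with a floor of 3 counts over the clones or WT where reads were 0. In data simulated for the DKO against WT comparison over 19446 genes, the fit recovered 71.2% of falls and 99.6% of rises of 6 log2 units, 38.0% of falls and 49.2% of rises of 3 log2 units, and 9.41% of its calls were false.

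Genes were named by a rule: Dnmt3a and Dnmt3b, all genes called higher, the 15 protein-coding called genes with the most WT reads, the 12 furthest in each direction in both clones, up to 4 called or size-rule members of each list, called neighbours within 500 kb, and Prdx1, Mmachc and Ccdc163. Other genes named were chosen after their values were seen. The lists (53 in all) and the genes shown were chosen with earlier results of these data known. Alternatives tried were other scalings, filters, thresholds, controls, each clone left out, and DESeq2 1.42.0. Values of a few genes are not reported here.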

Additional observations from a re-analysis of the deposited data

How the results depend on the processing

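No paired analysis was possible because WT had 1 library, so that the groups share fewer than 2 replicate numbers. The number of genes called (91, with 3 higher and 88 lower) rose to 535 (130 and 405) without a filter on low counts and to 262 (56 and 206) with DESeq2. It fell to 37 with WT and PRDX1MT joined (35 lower) and to 0 with a filter of 1 CPM in 2 libraries (0 higher and 0 lower, 490 at an unadjusted p under 0.05). That filter removed some genes above 1 CPM in WT alone, but 31 of the 47 named called genes were still tested and lost their call, and 0 kept it. Leaving out 1 clone gave 21 to 92 calls, 4 to 37 higher and 17 to 55 lower. Those fits join WT and PRDX1MT and assume that the lone clone varies like the other libraries. The size rule gave 417 genes above and 935 below WT at 20 reads, 115 and 176 at 500 reads, 614 and 991 at 1.5-fold, 30 and 237 at 4-fold, and 719 to 1088 above and 982 to 1084 below with 1 clone. Genes at 0 reads in both clones numbered 199, 67 and 41 at 10, 50 and 100 reads in WT (185 to 210 with 1 clone), and genes at 0 in WT numbered 5, 1 and 1 (6 to 25 with 1 clone). With WT and PRDX1MT joined, 3 log2 ratios took the other sign: Hey1 (-1.43), Prdx1 (0.75) and Fst (-0.16). With 1 clone left out as well, Hey1 lay between -1.74 and -1.16, Prdx1 between 0.63 and 0.89, Fst between -0.35 and 0.0201 and Hey2 between -0.0698 and 0.216. Of the 47 named called genes, 47 were called by DESeq2, 47 without the filter, 47 from WT and DKO alone, 43 under either other scaling, 42 against a 2-fold change (Prex2 was lost with Eln, Vldlr, Mirg and Kcna6), 16 with the joined control, and 9 and 19 without clone 1 and clone 5. Genes with fewer than 100 reads over clone and WT together were left out of the size rule. The cause of the other shifts was not tested.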
